A study of Schmidtea mediterranea with 58 samples.

Results

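In whole planarians, 1077 loci had higher normalized H3K4me3 counts after *set1* RNAi and lower counts after *mll* RNAi than both matching control libraries, often by little. Each locus is a pair of regions, 1 from the whole-worm table of *set1* RNAi and 1 from that of *mll* RNAi, which overlap by at least 50% of the shorter region. A pair was a member where both *set1* values lay above both of their controls and both *mll* values lay below both of theirs. Of all listed *set1* regions 36.6% were higher in this sense, and of all *mll* regions 44.7% were lower. Members made up 16.5% of the 6516 pairs of regions that overlapped by at least 50% of the shorter. Whether this exceeds what the 2 shares alone would give was not tested. A gap of at least 5% in both tables was met by 224 of the members. The members drew on 1076 of 8633 *set1* regions and 1077 of 5169 *mll* regions. They lay on 973 scaffolds, of which 884 held 1 member, 78 held 2 and 11 held 3 or more. Members were thus chosen by the whole-worm normalized counts of both tables, and their whole-worm levels and changes are a description without a test.

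H3K4me3, the trimethylated form of lysine 4 of histone H3, was measured in the flatworm *Schmidtea mediterranea* by chromatin immunoprecipitation and sequencing (ChIP-seq). The labels list 58 samples, 29 immunoprecipitated and 29 input libraries (chromatin sequenced without the antibody). Worms ate bacteria that expressed double-stranded RNA, mixed with calf liver, for 6 days against *set1* or for 9 days against *mll*. The *unc* RNAi controls of the 2 knockdowns (unc_set and unc_mll) were separate libraries, and their days of feeding are not in the labels. Whole worms and sorted X1 and Xins cells were compared with their own *unc* RNAi control, 2 libraries against 2, and untreated X1 cells were compared with untreated Xins cells. Whole worms hold all cell types, so fewer marked cells and less mark per cell cannot be told apart. The knockdowns differed in days of feeding and in control libraries, so the gene and the length of feeding cannot be told apart. The tables hold no transcript levels and no gene names, so neither the knockdown nor the identity of the sorted cells was checked here, and regions are called by the gene identifier (SMED30 number) that the tables list at the nearest gene start.

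H3K4me3 marks the starts of transcribed genes in animals. It is placed by enzymes of the SET1 and MLL (mixed lineage leukaemia) families, each of which works in a multi-protein complex, and the families are known to serve partly different sets of genes. In planarians, X1 is the usual name of the dividing cells that sorting by DNA content separates and that irradiation removes, largely stem cells called neoblasts, while Xins (X-ray insensitive) cells survive irradiation and are mostly differentiated.

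The differences in whole worms were small after *set1* and ranged from small to deep after *mll*. On the log2 scale of limma, fitted to the normalized count plus 1, the median member was 0.10 higher after *set1* RNAi (quartiles 0.07 and 0.14, range 0.01 to 0.37) and 0.13 lower after *mll* RNAi (log2 change -0.13, quartiles -0.26 and -0.08, range -1.45 to -0.02). Over all listed regions the medians were 0.01 and -0.03. Across the 1077 members the 2 changes had a Spearman rho of -0.162, near the -0.159 across all 6516 overlapping pairs. These points share the scaffold scaling within each table and differ in depth and level.

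**Figure D1:**
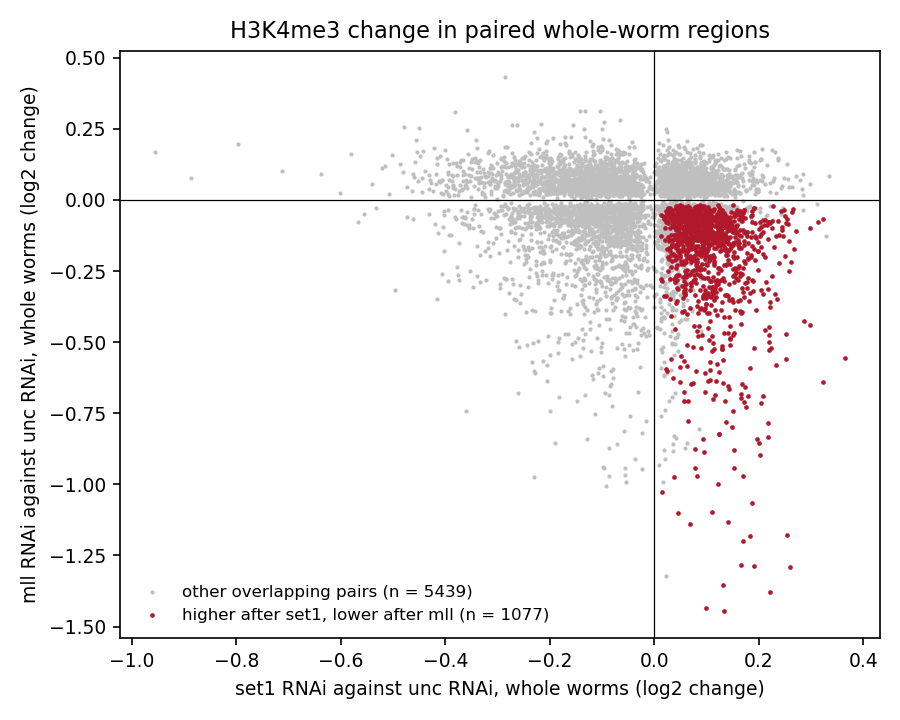
Log2 change of H3K4me3 in whole worms after *set1* RNAi (x axis) and after *mll* RNAi (y axis), each against *unc* RNAi, in the 6516 pairs of overlapping regions, with members in red and other pairs in grey. Members reach 0.37 on the *set1* axis and -1.45 on the *mll* axis.

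The rule separated groups that many listed regions separate. Of all 8633 *set1* regions 36.6% were higher without overlap of the groups, and of all 5169 *mll* regions 44.7% were lower. Members took up 34.1% of the 3157 such *set1* regions and 46.6% of the 2309 such *mll* regions. Limma put 463 members past an adjusted p of 0.05 in the *set1* table, where 15.1% of all regions were called higher, and 632 in the *mll* table, where 26.3% were called lower. Most of all regions did not meet the split that every member met, so these shares are no like comparison. Calls numbered 1300 beside the 3157 split *set1* regions and 1361 beside the 2309 split *mll* regions. Members are thus not shown to be called more often than such regions. Of the members, 286 were called in both tables. These calls use the libraries that chose the members and are no support for them. The *set1* count rested on single libraries, since it was 282 and 239 without the first-listed and second-listed *set1* library and 291 and 203 without either control library.

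The 10 members with the largest change in the weaker of the 2 tables were at or next to a gene start. At SMED30027566 the *set1* region (scaffold v31.006413, 6901 to 8000) held 423.7 and 453.2 normalized counts after *set1* RNAi against 358.5 and 322.4 in the controls, and the start lay 341 bases away. The *mll* region of that locus (6201 to 7800), which spans the start, held 361.3 and 352.2 after *mll* RNAi and 517.1 and 532.3 in the controls. Both groups were apart in both tables, with log2 changes of 0.37 ± 0.06 and -0.56 ± 0.06 (limma SE). At SMED30013439 (scaffold v31.018252, 7001 to 8100) the counts were 560.8 and 558.0 after *set1* RNAi and 455.2 and 439.5 in the controls. Its *mll* region (6101 to 8000) held 470.2 and 445.9 against 740.5 and 689.7. This locus met the rule by the widest margin of all members, at 0.294 on the log2 scale between the nearest libraries of the 2 groups.

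SMED30034709, SMED30015043 and SMED30025250 had both kinds of change over a long stretch of 1600 to 1900 shared bases. At SMED30025250 (scaffold v31.001837, 34701 to 36800) the 2 *set1* libraries held 1357.5 and 1369.5 and their controls 1118.8 and 1168.7. Its *mll* region (34801 to 36700) held 366.2 and 402.4 against 846.5 and 896.0. After *mll* RNAi both libraries lay under 50% of either control, with a log2 change of -1.18 ± 0.05, beside 0.25 ± 0.04 after *set1* RNAi. At SMED30015043 (scaffold v31.003868, 11901 to 13600) the *set1* libraries held 716.2 and 703.0 against 560.5 and 626.3. The *mll* libraries held 195.0 and 181.6 at 11901 to 13500, against 435.2 and 490.7. The *mll* change was again the larger, at -1.29 ± 0.08 beside 0.26 ± 0.05. At SMED30034709 (scaffold v31.000539, 20201 to 22200) the *set1* libraries held 1363.4 and 1348.1 against 1069.7 and 1135.7. The *mll* libraries held 668.7 and 699.6 at 20301 to 22200, against 898.6 and 958.3. Its log2 changes, 0.30 ± 0.04 and -0.44 ± 0.05, were closer in size. The other 5 of the 10 (SMED30034614, SMED30025075, SMED30012622, SMED30008101 and SMED30017808) had *set1* changes of 0.23 to 0.29 and *mll* changes of -0.56 to -0.25.

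**Figure D2:**
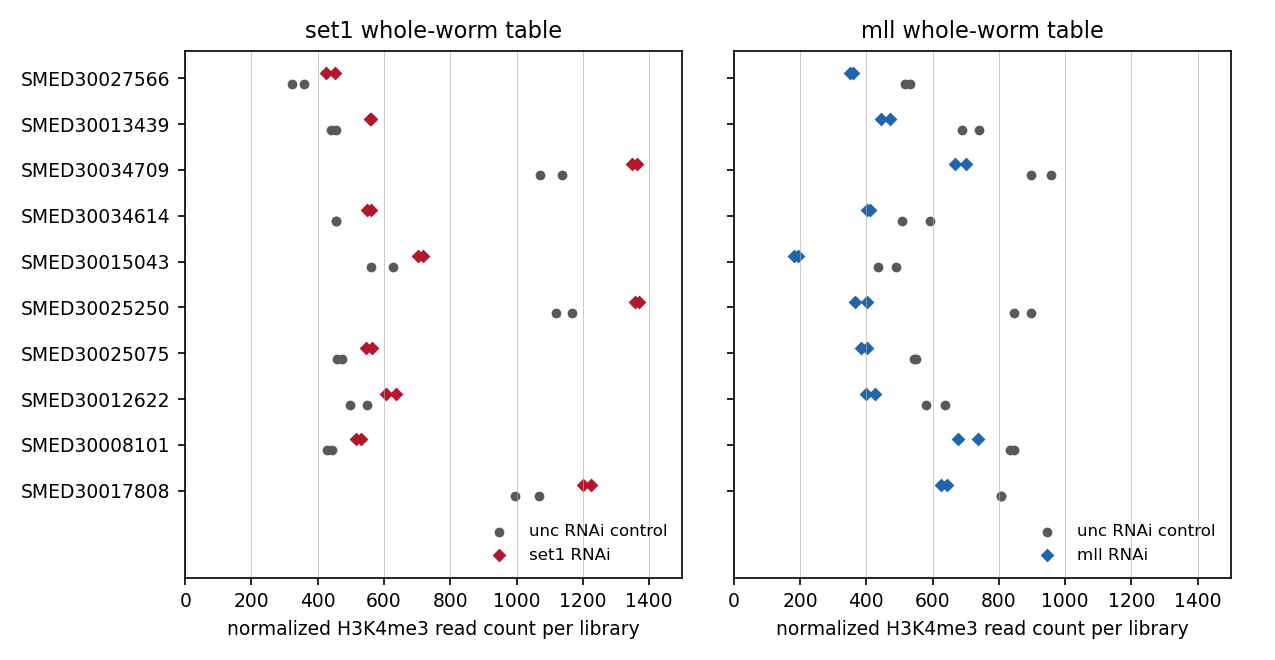
Normalized H3K4me3 read count of each library (x axis, from 0) at the 10 members with the largest change in the weaker table (y axis, gene identifier), with the *set1* table on the left and the *mll* table on the right. Diamonds are the 2 RNAi libraries and circles the 2 *unc* RNAi controls, and at each locus the diamonds lie above the circles on the left and below them on the right.

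The rule sets no minimum size. The margin by which it was met had a median of 0.0329 on the log2 scale and was under 0.02 for 385 members. Just inside it lay SMED30018861, with 1118.7 and 1056.7 after *set1* RNAi against 1056.7 and 1031.7, and SMED30019243, with 1925.8 and 1785.9 against 1765.5 and 1785.6. Just outside lay SMED30000812, with 1041.9 and 1002.5 against 1002.5 and 978.0. SMED30013661 also missed it, with 1609.6 and 1603.3 against 1603.4 and 1502.1. The members just inside are thus not separable from the pairs just outside at this precision. Asking for a gap of at least 5% between the nearest libraries in both tables left 224 of the members, and dividing the RNAi values by the median ratio of all listed regions left 689.

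Depth bounded what could be resolved. The normalized counts of whole-worm libraries were whole multiples of what 1 read is worth, which gave 242 to 3880 reads per library and member in the *set1* table and 135 to 2929 in the *mll* table. Counting error alone gave a median SE of 0.05 for the log2 change in each, the same as the median limma SE. Of the 1074 members with recovered reads, 555 differed by over 2 counting SE after *set1* and 659 after *mll*. The same libraries chose the members, and the share over all listed regions was not counted. These numbers thus describe depth and are no result about members. Mean levels of members ran from 323.0 (SMED30003876) to 2871 (the region over the starts of SMED30019088 and SMED30018735) in the *set1* table, with a median of 812.0, and from 301.0 to 2184 in the *mll* table, with a median of 705.0.

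Enrichment over input is a separate column of the tables, computed by the authors, but it rests on the same immunoprecipitated libraries and so is not independent. It was higher after *set1* RNAi at 1041 members (96.7%, against 78.9% of all overlapping pairs) and lower after *mll* RNAi at 954 (88.6%, against 69.2%). After *set1* RNAi it was also higher in 94.3% of pairs with higher counts in both tables. The same held for 62.9% and 58.1% of pairs with lower *set1* counts and lower or higher *mll* counts. The *set1* column thus rose in most pairs whichever way the counts went, and is no evidence on direction at members. Both held at 923 members (85.7%, against 55.7%). The median enrichment of members was 13.2-fold after *set1* RNAi and 10.8-fold in its control, and 8.79-fold after *mll* RNAi and 10.2-fold in its control.

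Members lay at gene starts. The *set1* region spanned a gene start at 959 members (89.0%) and the *mll* region at 948 (88.0%), and both did at 929 (86.3%). Over all overlapping pairs these shares were 67.4%, 78.3% and 59.1%. Of the other patterns in whole worms, the *set1* region spanned a start in 93.1% of the 597 pairs higher in both tables, in 48.1% of the 1027 pairs lower in both and in 42.6% of the 1035 pairs lower after *set1* and higher after *mll*. The position of the *set1* region thus went with the direction of the *set1* change and less with that of the *mll* change. No test of this difference was made.

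**Figure D3:**
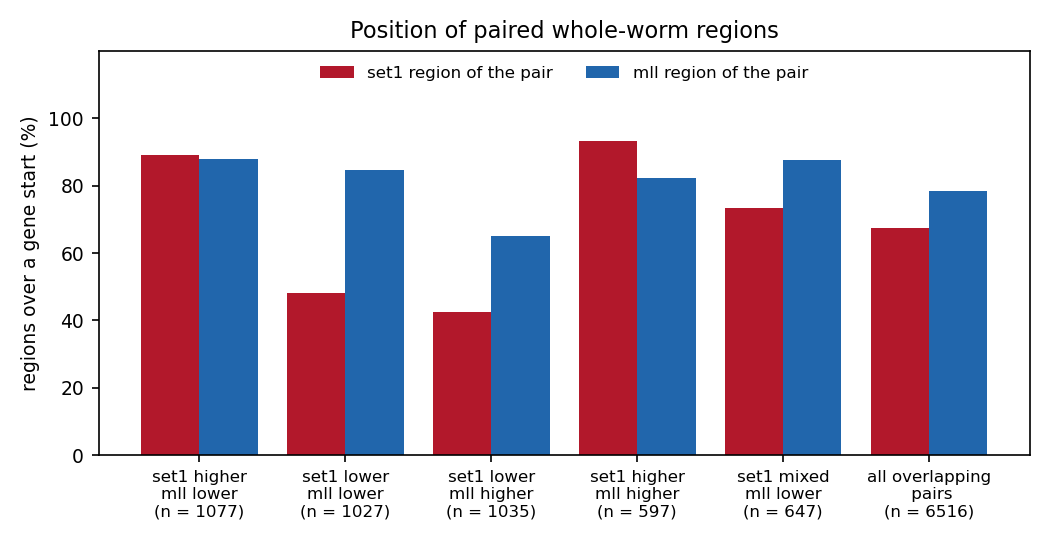
Share of paired whole-worm regions that span a gene start (y axis, percent, from 0), by the direction of the change after *set1* and *mll* RNAi (x axis, with the number of pairs; mixed means that the libraries of the groups overlapped). The *set1* regions (red) are at 89.0% for members and 42.6% for pairs of the opposite pattern, and the *mll* regions (blue) at 88.0% for members.

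Most member regions spanned a single start. A *set1* region spanned 1 start at 862 members and 2 or more at 97, and none at 118, of which 58 lay within 1000 bases of a start (median distance 1052 bases, up to 87609). In 1070 members (99.4%) both regions had a nearest gene in common. In all, 1060 gene identifiers had their start in a member *set1* region. The median length was 1200 bases for *set1* regions, 1400 for *mll* regions and 1000 (500 to 2500) for the stretch they shared. The *set1* region lay within the *mll* region at 197 members and held it at 260, while 22 pairs were identical, and the midpoints were a median of 250.0 bases apart. The longest shared stretch, 2500 bases, spanned the starts of SMED30021722 and SMED30024999 (scaffold v31.001385). The shortest, 500 bases, was shared by several members, 1 of them at SMED30029304 (scaffold v31.007699), where *mll* counts of 243.9 and 234.0 stood against 423.9 and 351.4.

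Many member regions overlapped a region of the opposite direction in the *set1* table. Of the 1076 *set1* regions, 487 (45.3%) overlapped another listed region that was lower after *set1* RNAi, by a median of 600 bases, compared with 50.0% of the 2081 other *set1* regions that were higher. Of the 498 lowered neighbours, 189 (38.0%) spanned a gene start, near the 43.6% of all 3554 lowered *set1* regions, and 261 were called lower by limma. In 275 of the 498 overlaps the start lay in the member alone, in 177 in both regions, in 12 in the lowered neighbour alone and in 34 in neither. At SMED30004989 and SMED30034426 (scaffold v31.000111, 204901 to 206300) the member region held 1974.1 and 1879.2 after *set1* RNAi against 1764.8 and 1730.1. The region from 205701 to 207200 held 1405.9 and 1343.5 against 1527.0 and 1448.4. The groups were apart in opposite directions over regions that share 600 bases. Sliding windows of the kind used here share reads, so overlapping regions are not independent.

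The deepest *mll* losses were not at members with such a neighbour. Among the 488 members with a lowered *set1* neighbour the median *mll* change was -0.11, with 24 at or below -0.5 and 0 at or below -1. Among the 589 without one it was -0.16, with 72 and 16. Read from the *mll* table, 215 regions were lower by 0.5 or more on the log2 scale, and 96 of these were in a member pair, 55 in a pair lower in both tables, 39 in a pair mixed after *set1*, and 64 in no overlapping pair. A region can belong to pairs of more than 1 pattern, so these counts exceed the total. Of the 28 *mll* regions at or below -1, members held 16, pairs mixed after *set1* held 2, and 10 were in no pair. These counts describe the lists and were not tested.

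Members that were deeper after *mll* RNAi had lower levels per 1000 bases in the unc_set controls, as did all pairs lower after *mll*. The 96 members at or below -0.5 had a median of 484.0 normalized counts per 1000 bases in the unc_set controls, which do not enter the *mll* change. The 181 members between -0.5 and -0.25 had 528.0, and the 800 members above -0.25 had 682.0. The *set1* change was somewhat larger where the *mll* change was deeper, with medians of 0.13, 0.11 and 0.09 in these 3 classes, a description of values that the rule used. Across members the *mll* change and the unc_set level per 1000 bases had a Spearman rho of 0.44, and across all 2751 pairs lower after *mll* it was 0.431. Points of the first set are part of the second, all come from the same libraries, and lower levels carry larger counting error. All regions were listed for a difference, and the part of that listing in this relation was not tested.

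In X1 cells after *mll* RNAi, libraries that the rule did not use, 83 members coincided with a region of the X1 table (the shared stretch and the listed region overlapping by at least 50% of the shorter), and 79 of these regions fell. All 79 passed limma at an adjusted p of 0.05, and 4 other regions rose and passed. The table itself leans the same way, since 92.5% of its 306 regions were lower without overlap (92.2% by limma) and 6.86% were higher (6.54% by limma), and 95.2% of the 83 were lower. What the list adds is which members are in it, as members covered 27.1% of the table. The 1027 pairs lower in both whole-worm tables gave 47 regions, 42 of them lower, and the 647 pairs mixed after *set1* and lower after *mll* gave 30, all lower. The 1035 pairs lower after *set1* and higher after *mll* gave 11, of which 4 were lower, and the 597 pairs higher in both gave 7, of which 3 were lower. A region can overlap pairs of more than 1 pattern, and these counts were not tested.

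The falls in X1 were mostly larger than in whole worms. The median of the 83 was -0.99 on the log2 scale (range -2.53 to 0.30), and 73 of the 79 lowered regions fell further in X1 than the *mll* region of the same member did in whole worms. Because the tables were normalized separately and list regions by their own threshold, this difference was not tested. Across the 83 members the changes had a Spearman rho of 0.585. Those points share the *mll* treatment but no library, and both tables hold only regions chosen for a difference.

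At SMED30025250, the member with the deepest fall in X1 (scaffold v31.001837, 34801 to 36700), normalized counts were 33.1 and 23.1 after *mll* RNAi and 170.3 and 159.3 in the X1 controls. The libraries stood far apart, with a log2 change of -2.53 ± 0.17 (limma adjusted p 1.74e-06). SMED30022889 (scaffold v31.004210, 19601 to 21100) held 21.4 and 11.0 against 92.4 and 82.6 in X1, a change of -2.43 ± 0.28 (adjusted p 1.8e-05), beside -1.38 ± 0.08 in whole worms. SMED30014144 (scaffold v31.001623, 33801 to 35200) held 18.4 and 17.0 against 87.6 and 88.1, a change of -2.25 ± 0.19 (adjusted p 5.91e-06). At these 3 loci both RNAi libraries stood far below both controls. The next was the shared start of SMED30000078 and SMED30019586 (scaffold v31.003246, 43401 to 45100), with 24.0 and 22.8 against 119.4 and 92.0. Its X1 change of -2.12 ± 0.18 (adjusted p 5.91e-06) stood beside only -0.34 ± 0.04 in whole worms. The remaining 6 of the 10 largest (SMED30025257, SMED30026554, SMED30030034, SMED30024332 with SMED30035504, SMED30021233 and SMED30029235) fell by 1.76 to 2.04 on the log2 scale.

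Where a member was deep in whole worms, the X1 table was more likely to list it as lower. Of the 16 members at or below -1 in whole worms, 11 (68.8%) were lower in X1. The share was 37.5% of 80 members between -1 and -0.5, 14.9% of 181 between -0.5 and -0.25, and 1.38% of 800 above -0.25. The median whole-worm *mll* change was -0.55 for members lower in X1 and -0.13 for the 994 that the X1 table did not list. Of the 79 members lower in X1, 68 had an X1 region that spanned a gene start. In the whole-worm tables, whose libraries chose the members, 76 of the 79 had an *mll* call (632 of all 1077 members, 26.3% of all regions) and 47 a *set1* call (463 of all members, 15.1% of all regions). The median region of this X1 table held only 47.0 and 30.5 reads in the *mll* libraries and 148.0 and 109.0 in the controls, and the limma SE of the 83 member regions ran from 0.06 to 0.28.

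**Figure D4:**
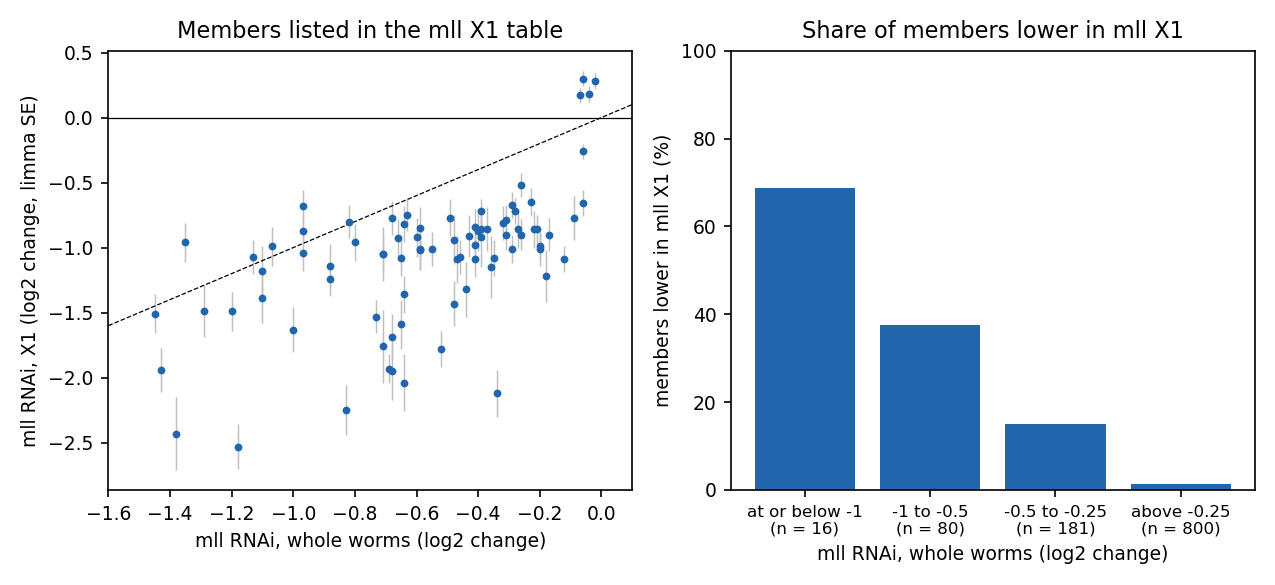
Left, log2 change of H3K4me3 after *mll* RNAi in whole worms (x axis) and in X1 (y axis, bars are the limma SE) for the 83 members listed in the X1 table, with the dashed line at equal change. Right, share of members lower in X1 (y axis, percent, from 0) by the size of their whole-worm change (x axis), falling from 68.8% of 16 members to 1.38% of 800.

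The 4 regions that rose in X1 after *mll* RNAi changed little, and their members were only slightly lower in whole worms. At SMED30008895 (scaffold v31.000914, 15201 to 16400) the X1 libraries held 252.0 and 236.6 after *mll* RNAi against 202.0 and 193.7, a log2 change of 0.30 ± 0.06 (limma adjusted p 0.000448). At SMED30033688 (scaffold v31.002766, 32601 to 33800) they held 264.8 and 246.1 against 209.4 and 210.5, a change of 0.28 ± 0.06 (adjusted p 0.000545). The other 2, at SMED30015929 and SMED30031071, rose by 0.18 and 0.17, and neither of them was called when the fit had no trend on the level, which left 2 calls. The whole-worm *mll* change of these 4 members had a median of -0.05. In each case the X1 region shared only 400 to 600 bases with the member.

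In Xins cells the *mll* table listed 12 regions, and 9 of them coincided with members. Pairs lower in both whole-worm tables held 5 of the 12, with a median log2 change of -1.25 beside -1.13 at members. Pairs mixed after *set1* and lower after *mll* held 1, and a region can overlap pairs of more than 1 pattern. All 9 member regions fell (limma, adjusted p 0.000541 to 0.00387), as did 100.0% of the table, with log2 changes of -2.43 to -0.80. The deepest was SMED30013558 (scaffold v31.000039, 32201 to 33200), where the Xins libraries held 7.02 and 15.0 after *mll* RNAi against 60.2 and 60.1. Its change was -2.43 ± 0.31 in Xins and -1.14 ± 0.05 in whole worms, and the X1 table did not list it. SMED30028363 (scaffold v31.010906, 14001 to 15400) held 19.3 and 13.0 against 47.8 and 60.3. At SMED30025250 (34901 to 36000) the Xins libraries held 23.6 and 28.8 against 64.5 and 56.9, a change of -1.18 ± 0.20. SMED30025250 was thus lower after *mll* RNAi in whole worms, X1 and Xins. The only other member in both the X1 and the Xins tables of *mll* was that nearest SMED30001586 (scaffold v31.001731, 30101 to 31600 in X1), 16372 bases from a start, with -1.36 ± 0.14 in X1 and -1.02 ± 0.20 in Xins. The calls in Xins were lost when either control library was left out. In those fits 1 control remained and the spread came from the 2 *mll* libraries alone, and all 9 regions were still lower.

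After *set1* RNAi the sorted-cell tables ran against the whole-worm direction of members, but listed few of them. The X1 table of *set1* held 554 regions, 99.8% of them lower, and 7 coincided with members. All 7 fell (limma), with log2 changes of -0.94 to -0.70. The same table held 227 regions at pairs lower after *set1* and higher after *mll*, and 82 at pairs lower in both. It held 19 at pairs higher in both and 8 at pairs mixed after *set1* and lower after *mll*. At SMED30020014 (scaffold v31.018192, 12101 to 13400) the X1 libraries held 42.1 and 44.1 after *set1* RNAi against 86.7 and 80.1 (log2 change -0.94 ± 0.19, limma adjusted p 7.2e-07). In whole worms this member held 725.6 and 742.6 against 724.2 and 687.6, so that its *set1* groups were apart by less than 2 counts. No X1 region of the 7 spanned a gene start, while the *set1* whole-worm region of 3 of these members did. With any overlap of 1 base or more the number of lowered X1 regions rose to 38, and with 1000 bases of slack to 51. Of the 31 regions that overlapped a member by less than 50% of the shorter, 27 coincided with a region that was lower after *set1* RNAi in whole worms, and 4 spanned a gene start. The same shares over all 554 X1 regions were not counted, so these numbers are not shown to be particular to members. Most of the *set1* losses in X1 that touched members thus lay at the edges of the shared stretch. Against the whole *mll* region of members, a choice made after seeing the data, 26 lowered X1 regions coincided by at least 50% of the shorter. Any lowered whole-worm region was counted here, not only the neighbours that overlap a member.

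The Xins table of *set1* listed 106 regions, all lower (100.0%), and 8 coincided with members, by changes of -1.11 to -0.64. It held 23 at pairs higher in both whole-worm tables (3.85% of those pairs, against 0.743% of members). Pairs lower after *set1* and higher after *mll* held 51, and pairs lower in both held 14. Pairs mixed after *set1* and lower after *mll* held 4. The largest fall at a member was at SMED30000078 and SMED30019586 (scaffold v31.003246, 43601 to 45000), with 40.0 and 29.6 after *set1* RNAi against 69.4 and 82.2 (-1.11 ± 0.23, limma adjusted p 2.08e-05). In whole worms the *set1* libraries of this locus held 1323.7 and 1332.2 against 1189.9 and 1166.9, a change of 0.17 ± 0.04 in the opposite direction. It was also among the 4 deepest falls in X1 after *mll* RNAi. SMED30020524.1 (scaffold v31.033938) was the other member in these same 2 lists, with 87.3 and 84.4 against 124.5 and 144.6 in Xins after *set1* RNAi. Of the 8 regions, 7 spanned a gene start and 6 coincided with a region lowered by *set1* RNAi in whole worms. The controls decided these calls, since limma called 3 of the 8 without the first-listed control library and 0 without the second-listed one, with 6 and 3 at an unadjusted p under 0.05. The 8 regions were lower in each case.

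Between untreated cells, the regions that coincided with members by at least 50% of the shorter were more often higher in Xins, but this balance turned with looser overlap. The X1 and Xins table was read up to the row where it stops, on 841 scaffolds that carry 391 members, and X1 was read as the treatment from the order in the table's name, so that the directions would swap under the other reading. On members it held 73 regions, of which 51 were higher in Xins (45 called by limma) and 22 higher in X1 (17 called). Of all its regions 37.0% were higher in Xins (32.1% by limma) and 62.6% higher in X1 (56.2% by limma). At pairs lower after *set1* and higher after *mll* the split ran the other way, with 156 regions higher in X1 and 24 higher in Xins, and at pairs lower in both it was 92 and 23. Pairs higher in both had 17 and 27. The difference between patterns was not tested. With any overlap of 1 base or more members had 47 calls higher in Xins and 55 higher in X1, and within 1000 bases 51 and 92. Nearly all calls were lost when either X1 library was left out, while the 51 and 22 regions kept their direction. In those fits the spread came from the Xins libraries, which held medians of only 6.0 and 30.0 reads per region in this table, beside 46.0 and 152.5 in X1.

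**Figure D5:**
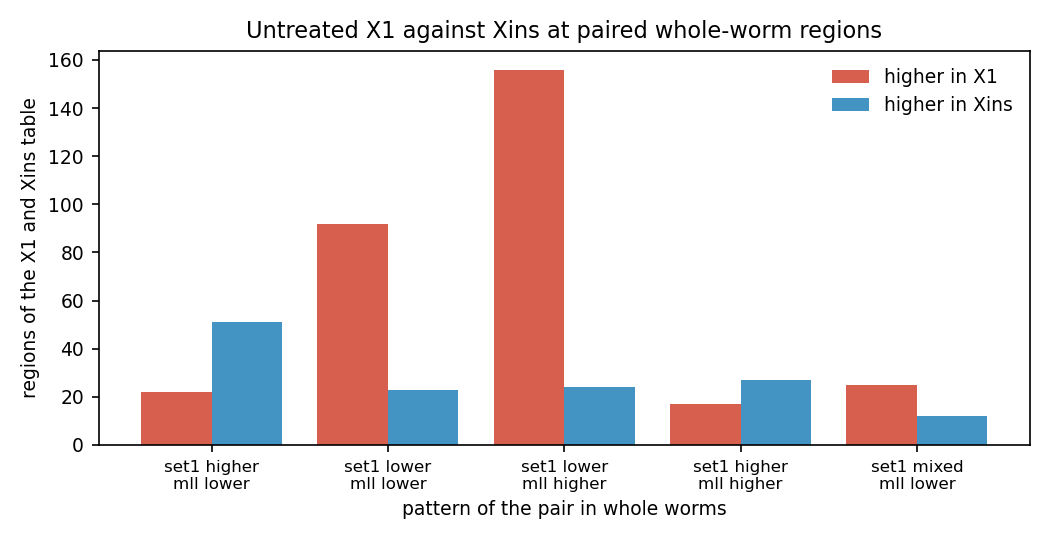
Number of regions of the untreated X1 and Xins table (y axis, from 0) that coincide with paired whole-worm regions, by the pattern of the pair in whole worms (x axis) and by the population with more H3K4me3. Members have 22 regions higher in X1 and 51 higher in Xins, and pairs of the opposite pattern 156 and 24.

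Of the 51 member regions higher in Xins, 46 (90.2%) spanned a gene start, and of the 22 higher in X1, 12 (54.5%) did. The whole table leaned the same way, with 77.5% of its 510 regions higher in Xins and 36.5% of its 862 regions higher in X1 over a start, and the difference was not tested. Those higher in X1 had a median whole-worm *mll* change of -0.29, with 8 at or below -0.5, and those higher in Xins one of -0.16, with 4. As in the *set1* X1 table, looser overlap added regions at the edges of the shared stretch of members. A further 45 regions overlapped a member by less than 50% of the shorter, and 42 of them were higher in X1. Of these 42, 4 spanned a gene start and 28 coincided with a region lowered by *set1* RNAi in whole worms. How many of all 862 regions higher in X1 coincide with such a lowered region was not counted.

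Among the members called higher in X1, SMED30004304 (scaffold v31.000845, 7601 to 10300) had 212.7 and 211.2 in X1 against 39.9 and 29.2 in Xins, a log2 difference of 2.60 ± 0.19 (limma adjusted p 0.00306). SMED30011104 (scaffold v31.000654, 91601 to 92900) had 55.7 and 52.5 in X1 against 13.3 and 15.5, a difference of 1.85 ± 0.22 (adjusted p 0.00579). The latter was also deep after *mll* RNAi in whole worms, with 436.9 and 425.9 against 788.2 and 771.6 (-0.85 ± 0.05). SMED30004648, SMED30024332 with SMED30035504, and SMED30022178 were the next, at 1.45 to 1.99. Among those called higher in Xins, the largest difference was at SMED30008735 and SMED30013791 (scaffold v31.000042, 170901 to 171900), with 8.26 and 6.06 in X1 against 27.4 and 23.2. Its log2 difference was -1.69 ± 0.34 (adjusted p 0.0118). This locus fell after *mll* RNAi in X1 as well, from 135.3 and 124.7 to 75.2 and 86.9 at 171501 to 173000, while its *mll* change in whole worms was -0.97 ± 0.05. SMED30029848 (scaffold v31.000014, 186801 to 188600) had 35.8 and 32.5 in X1 against 82.1 and 68.6. The next 3 (SMED30031947, SMED30023550 and SMED30021802) had differences of -1.10 to -1.08, with a limma SE of 0.29 to 0.34. Their 2 Xins libraries lay apart, at 72.9 and 42.9, 77.5 and 47.2, and 68.4 and 40.3. The higher value each time came from the first-listed library, where 1 read was worth 4.43 to 4.56 normalized counts.

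The locus at SMED30024332 and SMED30035504 was listed in both directions. From 58301 to 60500 on scaffold v31.000668 it held 58.7 and 60.6 in X1 against 22.8 and 18.9 in Xins, and from 59901 to 61500 it held 44.1 and 50.7 against 77.5 and 90.9. The X1 and Xins libraries were thus apart in opposite directions over neighbouring stretches of 1 member (limma adjusted p 0.00661 and 0.0123). After *mll* RNAi the whole stretch from 58901 to 61500 fell in X1, with 52.8 and 54.3 against 222.6 and 192.6 (-1.93 ± 0.11, adjusted p 1.38e-06).

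Most members were seen in whole worms only. In all, 913 members coincided with no region of the 5 other tables, 149 with regions of 1 table and 15 with regions of 2. None coincided with regions of 3 or more. The X1 and Xins table as read covered scaffolds that carry only 391 members, so the others could not coincide with it. The sorted-cell tables list far fewer regions than the whole-worm tables (12 to 1378 against 5169 and 8633) at far fewer reads per region, so a member that they do not list is not shown to be unchanged in sorted cells.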

How the data were processed

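The authors deposited 7 tables of region-wise comparisons from diffReps, which scans the genome in windows and compares libraries. The submitters' processing notes also name CASAVA 1.8.2, Bowtie and MACS2. The genome build, the diffReps version and its test are not given in the sources used here, nor is the use of the cross-linked *Drosophila* cells that the protocol mentions. Per the file headers, each region has a normalized read count for each of its 4 libraries (28 libraries in all), a deposited group mean (a signal scaled between libraries) and the authors' enrichment over input as a ratio. The columns with the authors' fold changes and p-values were not used.

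A region listed beside several genes was counted once. Each table was fitted alone with limma 3.58.1 in R 4.3.3 on log2(normalized count + 1), with empirical Bayes variances (following a trend on the level in each table but that of *mll* Xins). P-values were adjusted by Benjamini-Hochberg over the whole table and called at 0.05, and the script was tested on simulated data. The labels do not say that the 2 libraries of a group came from separate worms, so p-values measure only the spread between these libraries. The authors had listed all regions for a difference in the same libraries, so a call asks only whether a listed difference exceeded that spread. Reads were recovered by dividing a library's values by the worth of 1 read, found separately for each block of scaffolds (tolerance 0.0075). They describe depth and counting error alone, and no count model was run because that worth changes between blocks. For *mll* in Xins the depth is unknown.

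Regions were named by rule: the 10 members with the largest change in the weaker whole-worm table, members in the sorted-cell RNAi tables (up to 10 per table by size), the 5 largest called differences each way between X1 and Xins, the 2 nearest pairs on either side of the rule, and the extremes of level and length. The 4 regions that rose in X1 after *mll* RNAi and the X1 regions at SMED30001586 and SMED30008735 were chosen after their values were seen, as was the second region at SMED30024332. The members and lists were chosen with earlier results of these data known. Alternatives were the overlap, the pseudocount, the trend, a filter on low values, centring and leaving out each library.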

Additional observations from a re-analysis of the deposited data

Results flagged for a closer look

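Members in 3 comparisons lay on opposite sides of their controls in whole worms and in sorted cells under the same knockdown, with no overlap between the RNAi and control libraries in either table. At 7 members H3K4me3 was higher in whole worms and lower in X1 after *set1* RNAi, at 8 members it was higher in whole worms and lower in Xins after *set1* RNAi, and at 4 members it was lower in whole worms and higher in X1 after *mll* RNAi. The sorted-cell direction is that of the tables after *set1* RNAi, where 99.8% of X1 regions and 100.0% of Xins regions were lower, while 6.86% of X1 regions were higher after *mll* RNAi. Of the 7 members in X1, 1 had a limma call after *set1* RNAi in whole worms. Of the 8 in Xins, SMED30000078, SMED30008892, SMED30034690, SMED30004989 and SMED30020524.1 had such a call. SMED30023432, SMED30002895 and SMED30030518 had none. Such calls fell on 463 of all 1077 members and on 15.1% of all *set1* whole-worm regions. The difference itself was not tested, because the tables were normalized separately. Of the 7 regions in X1 and the 8 in Xins, 3 and 6 also coincided with another whole-worm region that was lower after *set1* RNAi, and the part of these neighbours in the difference was not tested.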

How the results depend on the processing

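The number of members was 1097 with any overlap of 1 base or more, 1029 with at least 50% of the longer region and 1077 with a mean count of at least 50. It was 224 with a gap of at least 5% in both tables, 286 with a limma call in both and 689 with RNAi values divided by the median ratio of all listed regions (chosen after seeing the data), and each of these kept a subset of the members. It was 1222 to 1295 with 1 library left out, which loosens the rule by construction and kept all 1077. Whole-worm calls came to 203 to 291 (*set1*) and 438 to 563 (*mll*) with 1 library left out. The *mll* calls of lower regions in X1 numbered 79 without any 1 library, and those of higher regions 3 to 4, or 2 without a trend. Calls after *set1* in X1 numbered 7 without any 1 library, 38 with any overlap, 51 within 1000 bases and 26 by overlap with the *mll* whole-worm region (chosen after seeing the data). Calls in Xins numbered 0 to 8 after *set1* and 0 to 9 after *mll* with 1 library left out, while all 8 and all 9 regions were still lower, and 13 after *set1* within 1000 bases. Calls between X1 and Xins were 0 to 49 higher in Xins and 0 to 22 higher in X1 with 1 library left out. Calls higher in X1 and in Xins were 55 and 47 with any overlap, 92 and 51 within 1000 bases, and 46 and 45 by overlap with the *mll* region, against 14 and 45 by overlap with the *set1* region (the last 2 chosen after seeing the data). The cause was not tested. No paired analysis was possible because the tables do not number their libraries. No single named region changed sign, but calls of named regions were lost in some settings, mostly with 1 library left out, and gained in fewer. A fit without 1 library leaves 1 in that group and takes the spread from the other group alone. The balance between X1 and Xins on members turned with the overlap. Precision is limited by 2 libraries per group and by the low reads of the Xins libraries.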
